A study of Homo sapiens with 12 samples.

Results

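The ubiquitin-specific proteases are described here in cells that the study gives as a lung squamous carcinoma line. They are all 50 protein-coding genes whose symbol is USP followed by digits and an optional X, of 58302 genes in the count table. Ubiquitin is a small protein that is attached to other proteins to mark them for degradation, sorting or signalling, and deubiquitinases are the enzymes that cut it off again. The ubiquitin-specific proteases are their largest family. They differ in the proteins they act on, from histones and cell cycle regulators to receptors at the membrane and components of the proteasome, and several need a partner protein to be active. USP24, a very large member, is the deubiquitinase that the study examined for the receptor GPR31.

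By the study's account the cells were NCI-H520, an established human line. They were transduced with a lentiviral L1-FGGY insertion construct (OV-L1-FGGY in the study, here L1-FGGY cells) or with the vector alone (OV-CTRL, here control cells). L1-FGGY is a chimeric transcript that joins a LINE-1 element to FGGY, a carbohydrate kinase gene. RNA libraries were counted in 4 groups of 3: L1-FGGY cells given DMSO, the same cells given the 12-lipoxygenase inhibitor ML355 at 10 μM, the same cells labelled as treated with the reverse transcriptase inhibitor NVR at 450 μM, and control cells given DMSO, whose columns are named DMSO alone. Drugs or DMSO (0.2%) were given with a change of medium 5 h after seeding. The length of treatment, and whether the lines were pools or single clones, are not given in the sources used here, and nothing states that replicates were separate cultures, so that the p-values measure the spread between these libraries, which may be technical.

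The 12 libraries fell into a pair of sets that crossed the labels. FGGY had 4782 to 7346 counts in the 6 L1-FGGY libraries with DMSO or ML355, but 82 to 103 counts in the 3 libraries labelled NVR and 78 to 91 in control cells. Log2 CPM correlated at 0.93 to 0.94 between L1-FGGY cells in DMSO and with ML355 and at 0.94 to 0.97 between the NVR-labelled libraries and control cells, but at only 0.71 to 0.77 across these sets. SOX2, a squamous lineage factor, was at 0 counts in all 6 libraries of the first set and at 128 to 446 in the second, whereas KRT17 was at 16304 to 97372 counts in the first and at 1 to 6 in the second. KRT6A and DSG3, other squamous markers, had no count in any library. Summed fibroblast markers were at 336 to 350 CPM in L1-FGGY cells in DMSO and 19.8 to 25.2 in control cells. Adenocarcinoma markers (0.454 to 0.789 and 4.58 to 5.43 CPM) and neuroendocrine markers (0.454 to 0.841 and 5.20 to 7.57 CPM) went the other way. The fibroblast sum was lower with ML355, at 111 to 121 CPM. COL1A2, 1 of its 5 markers, had no count in L1-FGGY cells in DMSO. Whatever else parts the sets cannot be told apart from the overexpression, and whether they come from the same line was not tested. The NVR-labelled libraries are therefore compared with control cells as well as with L1-FGGY cells in DMSO. Total counts ran from 16242082 to 27004768, so that 3 counts, taken as a floor, equalled 0.111 to 0.185 CPM (read counts scaled to a common library size with TMM factors). No fold change is quoted where a group's mean count is under that floor.

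Promoters of the members on which the results turn are shown first. RefSeq promoters on GRCh38.p14 (250 bases before and 50 after the start) matched 39 of the 50 members with 53 entries. The other 11 members were USP9X, USP18, USP24, USP26, USP31, USP37, USP42, USP43, USP44, USP48 and USP51. Below, capitals mark the GC box GGGCGG and the CCAAT box on either strand. USP1 is shown for its low level in the NVR-labelled libraries, USP4 and USP25 for their rise with ML355, and USP40 for its fall in L1-FGGY cells.
USP1, chr1:62436145-62436444, plus strand: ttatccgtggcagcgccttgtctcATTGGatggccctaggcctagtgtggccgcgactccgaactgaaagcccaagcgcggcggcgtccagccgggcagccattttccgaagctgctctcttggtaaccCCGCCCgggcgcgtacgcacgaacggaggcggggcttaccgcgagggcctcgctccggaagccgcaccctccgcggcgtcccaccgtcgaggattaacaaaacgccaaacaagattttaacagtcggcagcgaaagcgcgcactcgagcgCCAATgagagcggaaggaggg
USP4, chr3:49340004-49340303, minus strand: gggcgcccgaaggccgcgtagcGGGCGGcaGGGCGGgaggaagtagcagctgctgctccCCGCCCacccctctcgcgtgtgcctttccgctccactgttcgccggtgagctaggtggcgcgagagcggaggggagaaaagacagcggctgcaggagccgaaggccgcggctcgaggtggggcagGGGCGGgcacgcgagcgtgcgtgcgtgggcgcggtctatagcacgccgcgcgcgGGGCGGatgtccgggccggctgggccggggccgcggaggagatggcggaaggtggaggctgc
USP25, chr21:15729732-15730031, plus strand: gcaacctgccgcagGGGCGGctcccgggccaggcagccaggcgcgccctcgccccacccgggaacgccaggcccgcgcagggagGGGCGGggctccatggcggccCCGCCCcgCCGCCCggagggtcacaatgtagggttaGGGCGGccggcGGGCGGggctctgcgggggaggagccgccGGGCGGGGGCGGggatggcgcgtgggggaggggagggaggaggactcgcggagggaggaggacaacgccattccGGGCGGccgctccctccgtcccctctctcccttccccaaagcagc
USP40, chr2:233566733-233567032, minus strand: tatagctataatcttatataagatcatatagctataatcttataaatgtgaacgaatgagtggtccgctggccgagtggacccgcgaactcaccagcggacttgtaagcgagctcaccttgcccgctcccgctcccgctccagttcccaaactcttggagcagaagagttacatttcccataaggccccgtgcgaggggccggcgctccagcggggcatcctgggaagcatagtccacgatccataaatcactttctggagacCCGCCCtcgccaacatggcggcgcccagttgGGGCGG

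The USP25 window held 9 GC boxes, that of USP4 5, that of USP40 2 and the USP1 window shown 1, beside 2 CCAAT boxes. USP1 has a further entry, at chr1:62436799-62437098, with 1 GC box, no CCAAT box and 2 matches of TTTGAA. GC boxes occurred in 71.7% of the 53 entries of members, against 45.0% of all 35116 promoters of the table and 64.6% of the 16369 that belong to protein-coding genes tested here. CCAAT occurred in 24.5% of the entries of members and in 34.3% of the promoters of tested coding genes, and the ETS motif CCGGAAGT in 9.43% and 6.8%. The cell cycle motif TTTGAA occurred in 9.43% and 10.6%, and the E-box CACGTG in 7.55% and 9.08%. The E2F letters TTTGGCGC, TTTCGCGC, TTTGGCGG and TTTCCCGC, the CRE TGACGTCA and the NRF1 motif were in none of the 53 windows, and in 4.77%, 2.66% and 1.78% of the promoters of tested coding genes. TTTGGCGG shares its last 5 letters with the GC box. Both strands were searched for every motif, and a match is a run of letters, not a site of binding.

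Nearly the whole family was transcribed in these cells. Of the 50 members, 46 passed the filter on low counts, and 43 reached 10 counts in each of the 12 libraries. USP26, a testis gene, had no count in any library, USP29 had 2 counts in 1 library, USP50 had 5 counts in all and USP44, a mitotic checkpoint factor, had 54 in all with at most 11 in a library. These 4 were not tested. Per kilobase of exon, the highest mean level in L1-FGGY cells in DMSO was that of USP1, at 42.1 CPM per kb, followed by the proteasome-bound USP14 (24.5) and the stress granule-associated USP10 (24.2). In control cells it was that of USP5, at 56.6 CPM per kb, followed by USP22 (32.8) and USP11 (27.0). USP6 was the lowest tested member in both, at 0.06 and 0.033 CPM per kb. It is a near copy of USP32, between which counting may have split reads, and 30 members overlap another gene, 29 of them on the opposite strand, where counts cannot be assigned if strand was not used.

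The summed level of all members ran from 2535 to 2723 CPM in L1-FGGY cells in DMSO and from 2468 to 2746 with ML355. It ran from 1898 to 2193 in control cells and from 1610 to 1863 in the NVR-labelled libraries. The first 2 groups overlapped each other, and lay above both others.

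USP24, reported to stabilise the DNA damage factor DDB2, was called in all 4 comparisons, which share groups. The gene lies on chromosome 1 of GRCh38 from 55066359 to 55215378 on the minus strand, with 12042 bases of exon (GENCODE 44) and no overlapping gene, 4.081 Mb before FGGY. Its level was 167, 141 and 159 CPM in the 3 libraries of L1-FGGY cells in DMSO, 102, 116 and 101 CPM with ML355, 29.3, 37.1 and 42.0 CPM in control cells, and 24.9, 25.9 and 22.7 CPM in the NVR-labelled libraries. None of the 4 groups overlapped another. The mean was 156 ± 13.5 CPM (SD, n = 3) in L1-FGGY cells given DMSO and 36.1 ± 6.38 in control cells, a log2 fold change of 2.11 (SE 0.13, adjusted p = 5.22e-10), or 4.30-fold. All values here are of RNA. By western blot the study saw no change of total USP24 protein between these lines.

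With ML355 the USP24 level was 106 ± 8.58 CPM, lower by a log2 fold change of -0.55 (SE 0.13, adjusted p = 0.00164), and it stayed above both sets of low libraries. In the NVR-labelled libraries it was 24.5 ± 1.66 CPM. That was -2.67 on the log2 scale against L1-FGGY cells in DMSO (SE 0.13, adjusted p = 3.45e-11), but -0.56 against control cells (SE 0.13, adjusted p = 0.00283). The last value kept its sign but not its call when only these 2 groups were fitted (adjusted p = 0.0146), or without replicate 1 or 3 of the NVR-labelled libraries (0.0124 and 0.0126) or replicate 2 or 3 of control cells (0.014 and 0.0209). GPR31, the receptor that the study linked to USP24, had no count in any of the 12 libraries, which allows up to 0.111 to 0.185 CPM, counting error only. USP24P1, a pseudogene copy, had no count either. By qPCR the study had found no significant change of GPR31 RNA between these lines.

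**Figure D1:**
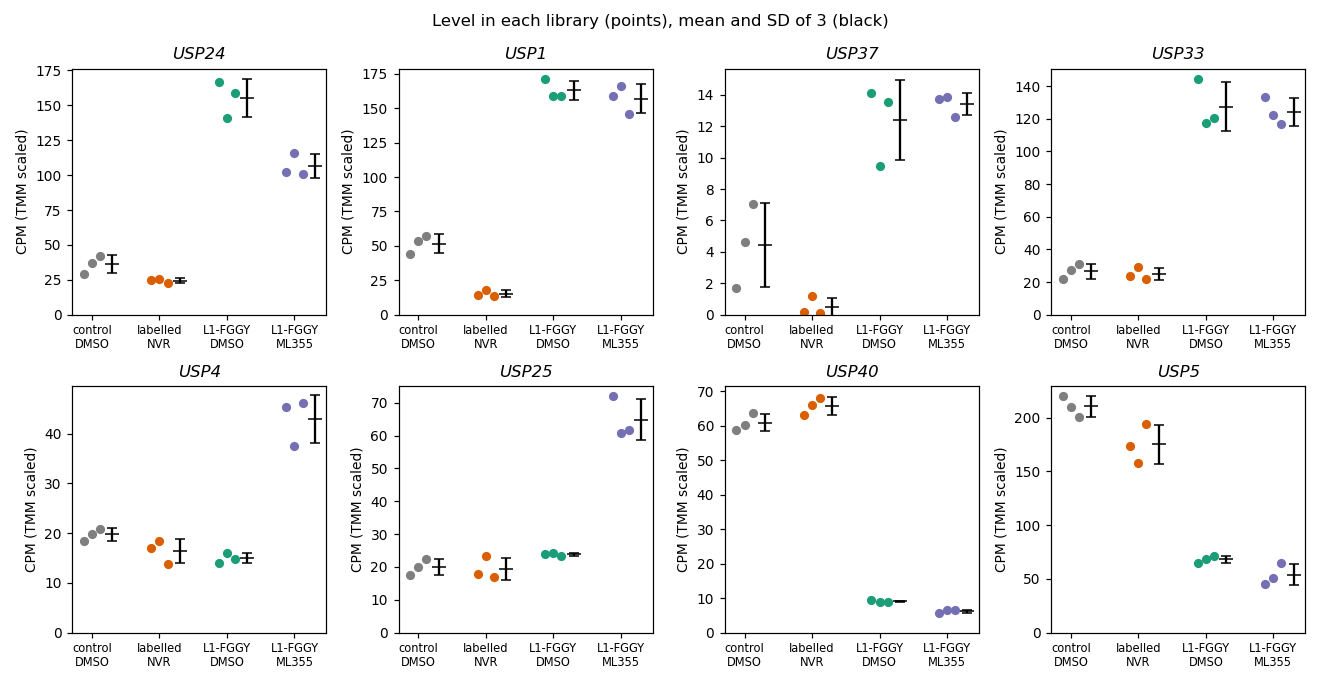
Level (CPM, TMM scaled, linear axes from 0) of 8 members in each of the 12 libraries by group, with the mean and SD of the 3 libraries in black. USP24, USP1 and USP33 lie high in L1-FGGY cells in DMSO, USP40 and USP5 high in control cells and the NVR-labelled libraries, and USP4 and USP25 high with ML355.

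Against control cells, 32 of the 46 tested members were changed in L1-FGGY cells in DMSO, with 22 higher and 10 lower, at an adjusted p under 0.01. Of all 17849 genes tested, 68.7% were called, so that the share of members called (69.6%) was near the background. The direction was less even: 47.8% of the members were higher against 32.5% of all genes, and 21.7% were lower against 36.2%. The median log2 fold change was 0.47 over the members and -0.11 over all genes.

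By role, the very large proteases USP24, USP34 and USP9X (a regulator of membrane and polarity proteins) were all higher, and so were the 3 that work with the WD-repeat protein WDR48, namely USP1, USP12 and USP46. Of the 8 tested members known from protein stability and the cell cycle, 5 were higher, and 1, the nucleolar USP36, was lower. Of the 8 tested histone deubiquitinases, 3 were higher and 4 lower. Of the 7 of membranes and organelles, USP33 and the mitochondrial USP30 were higher and the other 5 were not called.

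USP2, which acts on cyclin D1 and MDM2, had the largest rise. It stood at 4.42, 5.63 and 6.7 CPM in L1-FGGY cells in DMSO and at 0.757, 0.782 and 0.575 CPM in control cells, a log2 fold change of 2.98 (SE 0.29, adjusted p = 8.37e-08), on 15 to 20 counts in the control libraries. Next was USP33, a protease of the β-adrenergic receptor and of the guidance receptor ROBO1. Its level was 145, 117 and 120 CPM against 21.7, 27.5 and 30.8 CPM (log2 fold change 2.26, SE 0.14, adjusted p = 8e-10), so that the lowest L1-FGGY library stood far above the highest of control cells. USP53, long classed as inactive, stood at 42.9, 47.8 and 43.4 CPM against 9.46, 12.3 and 15.5 CPM (log2 fold change 1.85, SE 0.18, adjusted p = 1.66e-07).

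USP40, a little characterised member, had the largest fall. It measured 9.35, 8.94 and 8.92 CPM in L1-FGGY cells in DMSO and 58.9, 60.2 and 63.7 CPM in control cells, a log2 fold change of -2.75 (SE 0.11, adjusted p = 2.08e-12), or 6.72-fold lower. USP5, which takes apart free ubiquitin chains, stood at 64.8, 68.8 and 71.4 CPM against 220, 210 and 201 CPM (-1.62, SE 0.13, adjusted p = 8.51e-09). USP14, its fellow in ubiquitin recycling, was higher, with a log2 fold change of 1.09.

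Among the histone deubiquitinases, the lower ones included all 3 that can form the catalytic subunit of the SAGA-type module with ATXN7L3 and ENY2. USP22 was at 112 ± 12.5 CPM in L1-FGGY cells in DMSO and 222 ± 31.8 in control cells (-0.99, SE 0.19, adjusted p = 0.000183), USP27X at 2.33 ± 0.562 and 6.33 ± 0.701 (-1.44, SE 0.21, adjusted p = 1.33e-05), and USP51 at 6 to 13 counts and 31 to 53 counts (-1.60, SE 0.40, adjusted p = 0.00147). Their partners ATXN7L3 (-1.23) and ENY2 (-1.98) were lower too, and ATXN7 was higher (0.86), each with an adjusted p under 0.01.

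**Figure D2:**
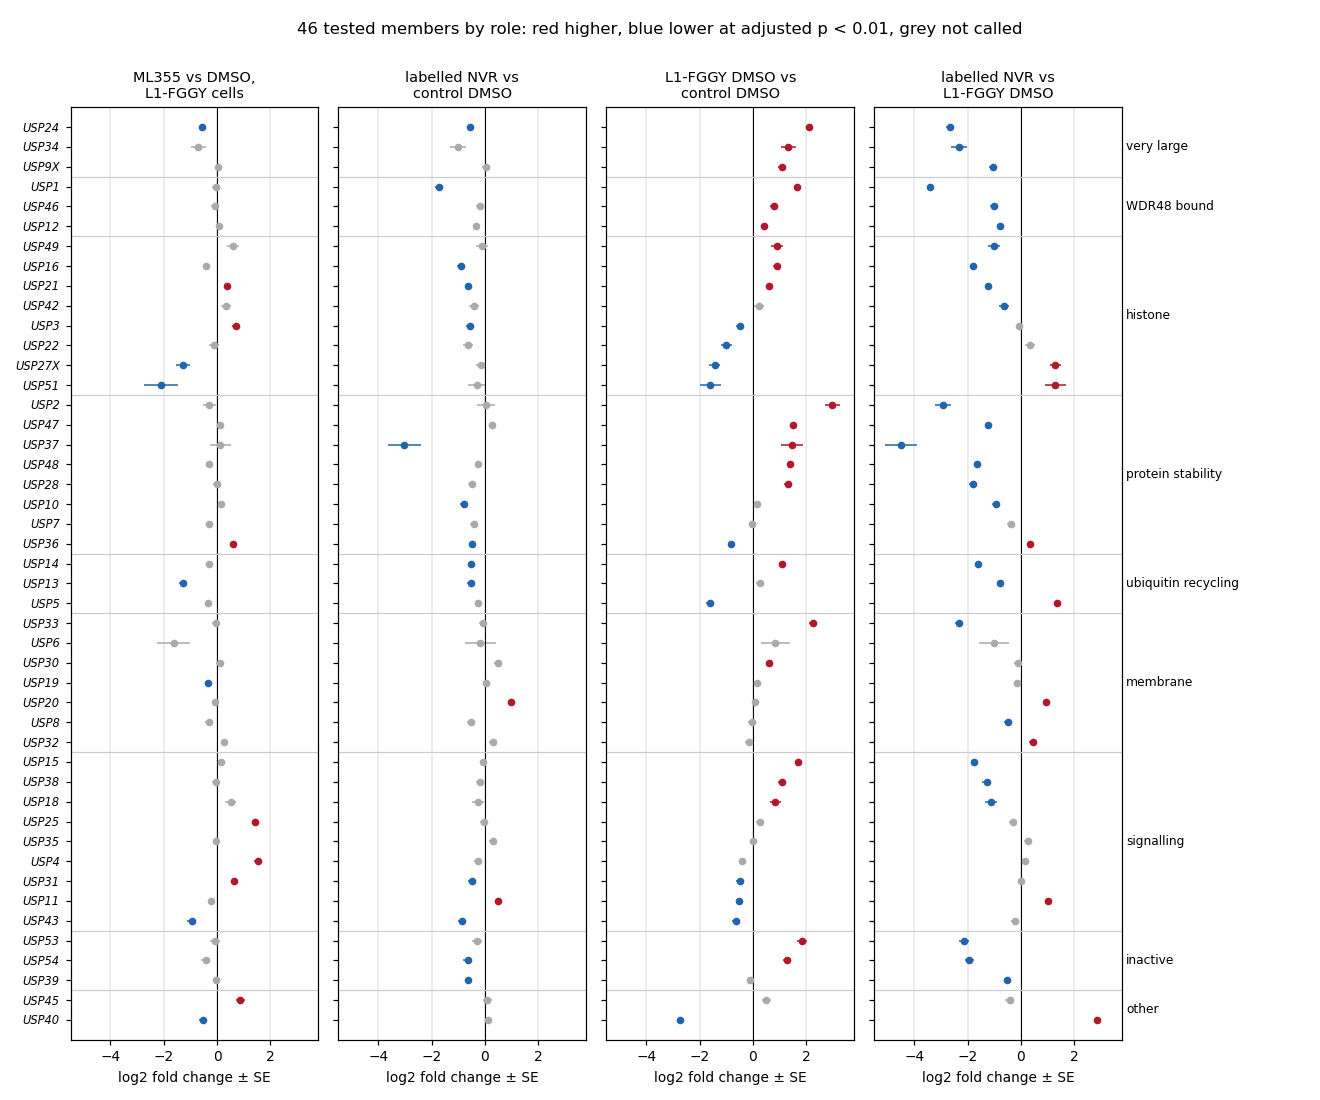
Log2 fold change (x axis) with its standard error for the 46 tested members (rows, grouped by role) in 4 comparisons, in red where higher and blue where lower at an adjusted p under 0.01. In L1-FGGY cells against control cells 22 members are red and 10 blue, and in the NVR-labelled libraries against L1-FGGY cells in DMSO 8 are red and 26 blue.

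The NVR-labelled libraries, set against L1-FGGY cells in DMSO as the labels pair them, gave 34 members called, 8 higher and 26 lower, against a background of 73.6% of all genes (38.2% higher and 35.4% lower). The median log2 fold change was -0.78 over the members and 0.08 over all genes. This comparison shares its DMSO libraries with the one above and crosses the 2 library sets, so its values are given only for the members that stood out. Among called members that averaged 1 CPM or more across the 12 libraries, USP40 (2.86), USP5 (1.36), USP27X (1.29) and USP11, a protease of DNA repair proteins (1.01), rose most, and USP37 (-4.49), USP1 (-3.40), USP2 (-2.94) and USP24 (-2.67) fell most. USP51, under that level, was also higher, at 27, 39 and 21 counts against 13, 6 and 11 (1.29, SE 0.41, adjusted p = 0.00718). The USP37 value rests on 3, 32 and 2 counts in the NVR-labelled libraries, and the fit gave -6.51 without replicate 2.

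ML355 moved a smaller part of the family. Of the 46 tested members 14 were called, 7 higher and 7 lower, which is 30.4% against a background of 44.8% of all genes (21.3% higher and 23.5% lower), with a median log2 fold change of -0.05. The 9 tested members of immune and growth factor signalling held 3 of the 7 rises and 1 of the falls. The 8 tested histone deubiquitinases held 2 rises and 2 falls. None of the WDR48-bound members was called, with USP1 at -0.05 (95% interval -0.32 to 0.21).

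USP4, which acts on receptors and kinases of TGF-β and NF-κB signalling, rose most. Its level was 45.3, 37.4 and 46.2 CPM with ML355 and 14.1, 16.0 and 14.8 CPM with DMSO, a log2 fold change of 1.52 (SE 0.13, adjusted p = 1.25e-07). USP25, a protease of TRAF adaptors, stood at 72.1, 60.8 and 61.6 CPM against 24.1, 24.2 and 23.4 CPM (1.44, SE 0.13, adjusted p = 2.79e-07). For both genes, every ML355 library lay above all 9 others.

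USP45, which acts on the DNA repair nuclease subunit ERCC1, measured 22.4, 19.8 and 16.97 CPM with ML355 and 11.1, 11.8 and 9.32 CPM with DMSO (0.88, SE 0.17, adjusted p = 0.00037). USP3, a histone H2A protease, measured 32.9, 24.2 and 32.5 CPM against 16.4, 18.7 and 19.7 CPM (0.71, SE 0.14, adjusted p = 0.000395). The other rises were those of USP31 (0.64), USP36 (0.61) and USP21 (0.36).

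Of the falls, USP13, the paralog of USP5, measured 11.4, 10.9 and 9.62 CPM with ML355 and 26.2, 24.1 and 27.1 CPM with DMSO (-1.28, SE 0.14, adjusted p = 1.22e-06), so that the groups were far apart. USP27X was at 0.838, 0.927 and 1.10 CPM against 2.06, 1.95 and 2.97 CPM, a difference of -1.29 (SE 0.26, adjusted p = 0.00046) on 17 to 59 counts. USP43 measured 4.14, 4.43 and 4.83 CPM against 7.69, 9.15 and 9.07 CPM (-0.95, SE 0.16, adjusted p = 0.000117). USP51 was called lower at 2, 4 and 1 counts with ML355 against 13, 6 and 11 with DMSO, where the mean of the ML355 libraries lay under the floor and no fold change is quoted. USP40 (-0.54), USP24 (-0.55) and USP19, which is anchored in the endoplasmic reticulum (-0.35), made up the rest.

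In the NVR-labelled libraries against control cells, 16 of the 46 members were called, 2 higher and 14 lower, against a background of 29.8% of all genes (14.5% higher and 15.3% lower). The share called lower among the members was 30.4%. The median log2 fold change was -0.28 over the members and 0 over all genes. This count was 9 without replicate 1 of the NVR-labelled libraries, 10 without replicate 2 of control cells and 9 without its replicate 3. Calls over all genes fell as well, from 5316 to 3673, 3506 and 3550.

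USP1, which with WDR48 removes ubiquitin from FANCD2 and PCNA in DNA repair, was the clearest fall. It stood at 14.7, 18.2 and 13.4 CPM in the NVR-labelled libraries and at 43.96, 53.6 and 57.2 CPM in control cells, a log2 fold change of -1.74 (SE 0.13, adjusted p = 9.21e-08), with no overlap. USP37, which acts on cyclin A and replication proteins, had 3, 32 and 2 counts against 41, 118 and 184 counts. Its fitted log2 fold change was -3.03 (SE 0.61, adjusted p = 0.000463), which moved to -5.04 without replicate 2 of the NVR-labelled libraries, and was not called without a filter on low counts (adjusted p = 0.0145) or when only the 2 groups were fitted (0.0122). Both other NVR-labelled libraries were at or under the floor.

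USP16, a histone H2A protease active in mitosis, measured 12.5, 15.1 and 10.4 CPM in the NVR-labelled libraries against 22.7, 24.8 and 24.2 CPM (-0.91, SE 0.13, adjusted p = 4.96e-05). USP43 measured 7.81, 8.22 and 6.09 CPM against 13.1, 13.5 and 13.8 CPM (-0.86, SE 0.15, adjusted p = 0.000311). The other falls included USP10 (-0.81), USP54 (-0.65), USP21 (-0.64) and the splicing factor USP39 (-0.63).

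The 2 rises were those of USP20 and USP11. USP20, which trims ubiquitin from β-adrenergic receptors and HMG-CoA reductase, was at 56.4, 60.0 and 64.4 CPM in the NVR-labelled libraries and at 29.0, 31.0 and 31.2 CPM in control cells, a log2 fold change of 0.99 (SE 0.11, adjusted p = 3.82e-06). Every NVR-labelled library lay above all 9 others. Its close paralog USP33 was not called, at -0.09 (95% interval -0.39 to 0.22). USP11 stood at 195, 188 and 191 CPM against 145, 135 and 132 CPM (0.48, SE 0.10, adjusted p = 0.00157), and was not called without replicate 2 or 3 of control cells (adjusted p = 0.0117 and 0.0109) or with scaling by library size alone (0.0295).

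Cell cycle genes were lower in the NVR-labelled libraries, where USP1 and USP37 fell, but did not follow these 2 members in the other comparisons. The 12 markers of proliferation summed to 960 to 1020 CPM in the NVR-labelled libraries, 2935 to 2962 in control cells, 3033 to 3299 in L1-FGGY cells in DMSO and 2878 to 3071 with ML355. All 12 were called lower in the NVR-labelled libraries than in control cells, against 15.3% of all genes. With ML355 7 of the 12 were lower and 3 higher (23.5% and 21.3% of all genes), while USP1 and USP37 were not called. In L1-FGGY cells against control cells 5 were higher and 4 lower (32.5% and 36.2% of all genes), while USP1 and USP37 were higher. The part of proliferation in the members' values was not tested, and in bulk RNA fewer cells of a state and less RNA per cell cannot be told apart.

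The 2 comparisons that share no library were then set against each other. They were ML355 against L1-FGGY cells in DMSO, and the NVR-labelled libraries against control cells. By the labels, the second differs in construct as well as in drug. USP13, USP24 and USP43 were lower in both. USP21, USP3, USP31 and USP36 were higher with ML355 and lower in the NVR-labelled libraries. The share of all genes called in both comparisons was not counted, so these lists cannot be read as particular to the members. A test of the difference between the 2 changes called 15 of the 46 members, 5 with a higher value in the NVR-labelled libraries and 10 with a lower one, against a background of 34.1% of all genes (16.8% and 17.3%). For USP24 the changes were -0.55 and -0.56, and the difference was -0.01 (95% interval -0.40 to 0.38).

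**Figure D3:**
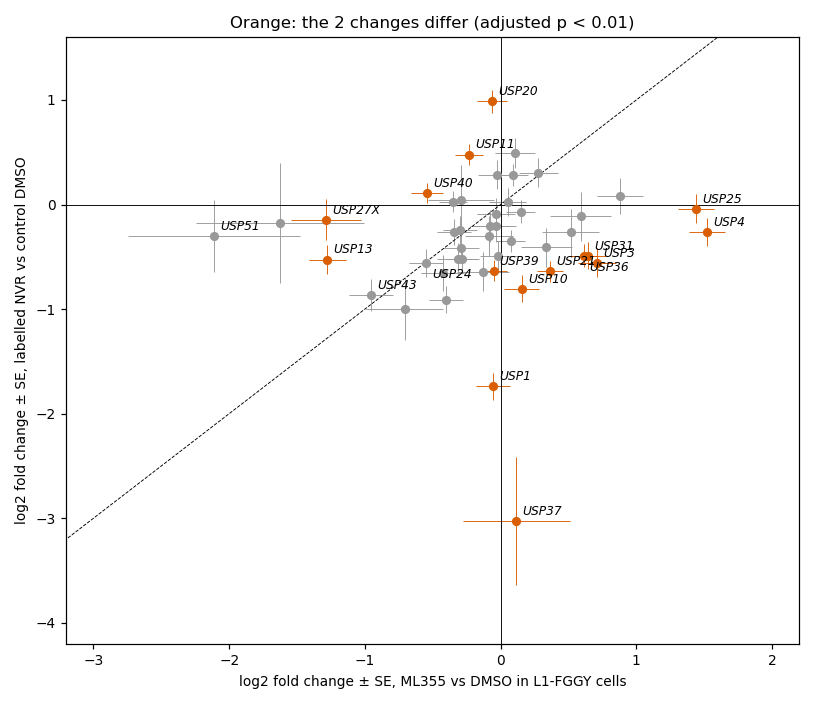
Log2 fold change with ML355 (x axis) and in the NVR-labelled libraries against control cells (y axis), each with its standard error, for the 46 tested members; on the dashed line the changes are equal. The 15 members whose changes differ at an adjusted p under 0.01 are orange, and USP24 lies on the line at -0.55 and -0.56.

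Called in all 4 comparisons were USP21, USP24 and USP36, and 3 in none, USP35, USP6 and USP7. The comparisons share groups, and the share of all genes called in all 4 or in none was not counted. These counts therefore cannot be read as particular to the members. USP7, which controls MDM2, is abundant in all groups, at 120 ± 5.98 CPM in L1-FGGY cells in DMSO, 97.99 ± 22.4 with ML355, 92.1 ± 6.96 in the NVR-labelled libraries and 123 ± 4.35 in control cells. USP18, which removes the ubiquitin-like ISG15, rose from 7.92 ± 1.16 CPM in control cells to 14.2 ± 1.88 in L1-FGGY cells in DMSO (0.85, SE 0.22, adjusted p = 0.00206). ISG15 itself was at 210 to 287 counts and 23469 to 27211 counts in the same libraries, and its ligase HERC5 at 66 to 92 and 7362 to 8067. Not all of the ISG15 system rose: UBE2L6 was lower, at 54.6 to 58.8 CPM in control cells and 27.5 to 29.9 in L1-FGGY cells in DMSO. UBA7 had a mean of 1.96 CPM in both.

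Length of the gene moved with the comparisons. Tested members have a median of 7546 bases of exon, against 4542 for all genes tested. In L1-FGGY cells against control cells the median log2 fold change of all genes ran from -0.49 at up to 2500 bases to 0.21 over 8000 bases, where the 21 members had a median of 0.90. In the NVR-labelled libraries against control cells it ran from 0.27 to -0.18, where the 21 members had -0.24, and 22.6% of all genes over 8000 bases were lower. With ML355 it ran from 0.12 to -0.13, with members at -0.08. Libraries of a group differed in the same way: genes over 8000 bases lay 0.12 below the group mean in replicate 1 of control cells and 0.11 above it in replicate 3, and 0.13 above it in replicate 2 and 0.12 below it in replicate 3 of the NVR-labelled libraries. The part of length in the members' values was not tested.

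**Figure D4:**
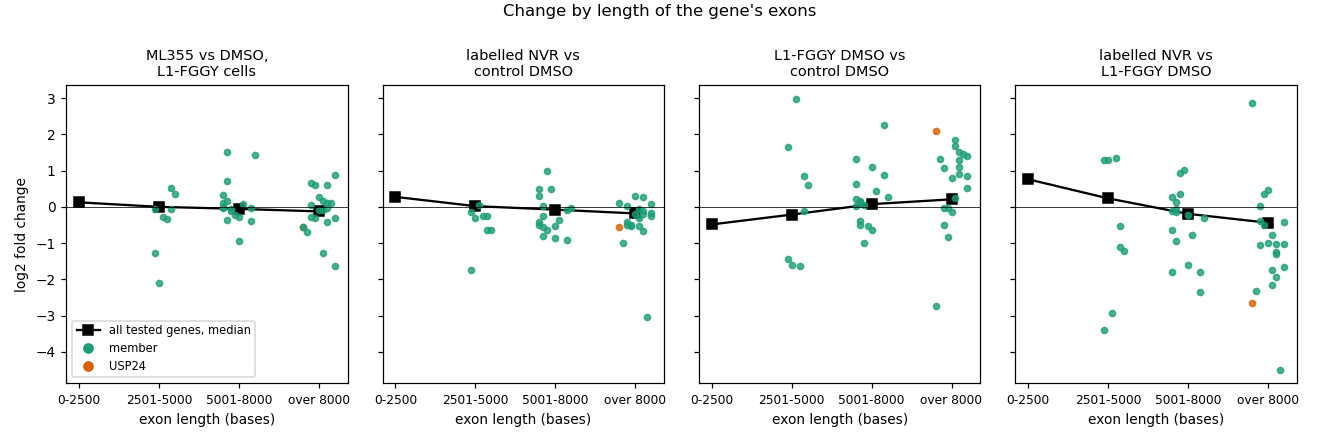
Log2 fold change (y axis) by bases of exon (x axis, 4 classes), as the median of all tested genes (black squares) and for each tested member (green; USP24 orange), in 4 comparisons. Black squares rise from -0.49 to 0.21 in L1-FGGY cells against control cells and fall from 0.27 to -0.18 in the NVR-labelled libraries against control cells.

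The members were also read by chromosome. All 5 members on chromosome 1 (USP1, USP21, USP24, USP33 and USP48) were higher in L1-FGGY cells than in control cells, where 47.1% of the 1793 tested genes of that chromosome were higher, and 3 of the 5 on chromosome 17 (USP22, USP36 and USP43) were lower, as were 60.7% of its 1158 tested genes. Chromosome X ran the other way: USP11, USP27X and USP51 were lower and USP9X higher, where 41.4% of its 582 tested genes were higher and 30.9% lower. Of the 20 tested genes nearest to USP24, which include FGGY, 7 were higher and 2 lower in L1-FGGY cells than in control cells, against 32.5% and 36.2% of all genes, and the overexpressed FGGY was 1 of the 7. With ML355 6 were higher and 9 lower, against 21.3% and 23.5% of all genes. In the NVR-labelled libraries against control cells none of the 20 was higher and 3 were lower, against 14.5% and 15.3%. The part of position in these values was not tested.

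Deubiquitinases of the other families were counted beside the members. With ML355, 15 of 34 tested genes were higher and 5 lower (44.1% and 14.7%, against 21.3% and 23.5% of all genes), with a median of 0.40. The difference from the members was not tested. The OTU family held 8 of the rises, among them YOD1 (1.16), OTUD3 (1.14) and TNFAIP3, a brake on NF-κB (1.18), while OTUD7A fell (-2.14). In L1-FGGY cells against control cells 14 were higher and 7 lower (41.2% and 20.6%, against 32.5% and 36.2%), with UCHL1, a neuronal hydrolase, at -5.86 and YOD1 at 4.28. In the NVR-labelled libraries against control cells 3 were higher and 7 lower (8.82% and 20.6%, against 14.5% and 15.3%), and 4 of the 6 metalloprotease (JAMM) members were among the lower, with the K63-specific BRCC3 at -0.81 and the proteasome lid protease PSMD14 at -0.63. Of the 3 members of the fold under other names, CYLD (1.40) and USPL1 (0.78) were higher in L1-FGGY cells than in control cells, and PAN2, a subunit of an mRNA deadenylase, was lower (-1.08). With ML355 PAN2 was higher (1.31).

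The partners and substrates of the family are given in turn. WDR48, the activator of USP1, was not called with ML355 (0.28), in L1-FGGY cells against control cells (0.30) or in the NVR-labelled libraries against control cells (-0.27), whereas its relative WDR20 was lower in L1-FGGY cells (-1.05). G3BP1, the partner of USP10, was lower in the NVR-labelled libraries than in control cells (-1.01), as was GMPS, the partner of USP7 (-0.57). STAM and STAM2, which bind USP8, were higher in L1-FGGY cells than in control cells, at 0.92 and 0.64.

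The USP1 substrates FANCD2 and FANCI were lower in the NVR-labelled libraries than in control cells, at -1.83 and -1.74, and PCNA at -0.72. With ML355 FANCI (-0.77), PCNA (-0.79) and MYC, a substrate of USP28 and USP36 (-0.95), were lower, and MDM2, a substrate of USP7 (0.98), was higher. ALOX12 is the gene of the lipoxygenase that ML355 inhibits. It had 11 to 17 counts in L1-FGGY cells in DMSO, 50 to 73 with ML355 and 139 to 165 in control cells. Its log2 fold change was 1.96 with ML355 and -3.01 in L1-FGGY cells against control cells. The study reported the opposite direction between these lines, with RNA of this lipoxygenase raised by overexpression of L1-FGGY. The reason for the difference was not tested. All values named in these paragraphs on partners, substrates and other families as lower or higher had an adjusted p under 0.01 in edgeR's quasi-likelihood test.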

How the data were processed

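RNA of 12 libraries, given by the study as NCI-H520, was analysed in 4 groups of 3, grouped by the sample titles. Reads had been aligned by the authors with STAR 2.5.3a to hg38 and counted with HTSeq 0.11.2, and raw counts for each Ensembl gene were deposited; the labels name a TruSeq kit and the methods an NEB kit. Annotation release and strand setting are not given in the sources used here. GENCODE 44 gave symbols to 57532 of 58302 genes.

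Counts were fitted in R 4.3.3 with edgeR 4.0.16 (filterByExpr, TMM, robust quasi-likelihood over the 4 groups), with Benjamini-Hochberg adjusted p under 0.01, the study's threshold. The script was tested on simulated data. Members and gene lists were chosen with earlier results of these data known. Named in full were USP24 and, per comparison, the 4 called members with the largest rise and fall, with a mean of 1 CPM or more and no overlap between the groups, and all partners, substrates and genes of the lipoxygenase axis; others were named by role. The result of 1 listed substrate is not reported here. DESeq2 1.42.0 and limma 3.58.1 (voom) were tried as alternatives, as were other scalings and filters, 2 groups only, a replicate block, each library left out and an adjusted p under 0.05. Figures were made with matplotlib.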

Additional observations from a re-analysis of the deposited data

Results flagged for a closer look

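In 15 members the change with ML355 in L1-FGGY cells and the change in the NVR-labelled libraries against control cells differed, by edgeR's test of the difference between them at an adjusted p under 0.01. These were 32.6% of the tested members, near the 34.1% of all genes called by the same test. Each value is the second change minus the first on the log2 scale. The difference was negative for USP37 (-3.14, with 2 libraries at or under 3 counts), USP4 (-1.78), USP1 (-1.68), USP25 (-1.48), USP3 (-1.27), USP31 (-1.14), USP36 (-1.10), USP21 (-1.003), USP10 (-0.96) and USP39 (-0.58). It was positive for USP40 (0.65), USP11 (0.71), USP13 (0.75), USP20 (1.05) and USP27X (1.14). For USP4 and USP25 the difference comes with a rise under ML355, and for USP1, USP37 and USP10 with a fall in the NVR-labelled libraries. The groups of 3 are too small for the check on single outlying samples.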

How the results depend on the processing

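Of 463 alternative values for the 31 named changes, those of USP24 included, 453 kept their direction and side of the threshold, 10 kept the direction only and none reversed. Apart from USP24, these changes were chosen for their size and call in the same libraries. That choice favours such stability, which says little of the rest of the family. An adjusted p under 0.05 raised the members called with ML355 from 14 to 22. The number of all genes called at that threshold is not given here, so this rise has no background beside it. In the NVR-labelled libraries against control cells the count ran from 9 to 21 with each library left out, and USP24 from -0.69 to -0.44; fitting only those 2 groups gave USP24 -0.56 without a call (adjusted p = 0.0146). Over all alternatives the count ran from 29 to 34 for L1-FGGY cells against control cells, from 29 to 36 for the NVR-labelled libraries against L1-FGGY cells in DMSO, and from 11 to 22 for the difference between the changes. At least 10 counts in every library left no value for USP37. Scaling by library size alone moved the median of all genes by -0.13 with ML355 and by -0.15 in the NVR-labelled libraries against control cells, and turned no named member's direction. Same-numbered libraries deviated together by correlations of -0.35 to 0.17, so the numbers do not pair them; with a replicate block the counts were 13 with ML355, 32 for L1-FGGY cells against control cells, 31 and 15 for the NVR-labelled libraries against L1-FGGY cells in DMSO and control cells, and 14 for the difference. Calls over all genes, in the same order, were 7583, 11979, 12874, 4754 and 5649 with the block. Without it they were 8004, 12263, 13143, 5316 and 6093. With the block USP24 was at -0.55, 2.11, -2.67 and -0.56. Depth limits USP37, USP51, USP2, USP27X and USP6, which rest on few counts.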
